A study of Mus musculus with 8 samples.

Results

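Respiratory complexes II to V were followed through 46 nuclear genes, of 17097 genes measured in dermal fibroblasts of mice on a normal diet (ND) or a high fat diet (HFD). The list was set with earlier results of these data known, and its genes were taken by symbol. Complex II was Sdha to Sdhd (4 genes), and complex III the symbols that start with Uqcr together with Cyc1 (8 genes). Complex IV was the symbols that start with Cox4 to Cox8 (17 genes), and complex V those that start with Atp5 (17 genes). They were represented by 74 probe sets, and 19 of the genes had more than 1. Each gene was read from its brightest probe set in the arrays compared, and the others are given beside it.

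The animals were female mice that began their diets at an age of 2 months and stayed on them for 6 months, before all were killed on 1 day. The labels give neither a strain nor the composition of the diets. The skin was stripped of its subdermis, and fibroblasts were sorted by flow cytometry as Pdgfra and CD34 positive cells without CD45, CD117, CD24, CD31 or EpCam. Their RNA was amplified over 20 cycles before it was hybridised. Each diet had 4 arrays, labelled as specimens 1 to 4, and the labels do not say in so many words that each came from a separate mouse. ND 4 was marked by the submitters as excluded in quality control, with no reason given, so HFD 1 to 4 were compared with ND 1 to 3.

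Complex II (succinate dehydrogenase) takes electrons from succinate to coenzyme Q, complex III passes them on to cytochrome c, and complex IV (cytochrome c oxidase) passes them to oxygen. The protons that complexes III and IV move across the inner mitochondrial membrane drive complex V, the ATP synthase. Complex II is encoded wholly in the nucleus, while complexes III, IV and V also hold subunits encoded in mitochondrial DNA. None of the 6 mitochondrially encoded subunits of these complexes was named by a probe set here, so the values below are those of nuclear genes.

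Of the 6 genes that differed between the diets (below), promoters were found for 4, and the 3 that hold a match to a motif of a factor known for nuclear respiratory genes are shown. The letters are the 250 bases before the annotated start, from RefSeq (GRCm38.p6, all on the minus strand, written 5′ to 3′ along the gene), with matches in capitals. The motifs searched on both strands were a consensus of the factor NRF1 and CCGGAAG for ETS factors such as GABP. Matches to the NRF1 consensus are the capitals of Sdha and Atp5c1 below, and CCGGAAG is in capitals in Atp5j.
Sdha, chr13:74350241-74350490, NRF1 motif: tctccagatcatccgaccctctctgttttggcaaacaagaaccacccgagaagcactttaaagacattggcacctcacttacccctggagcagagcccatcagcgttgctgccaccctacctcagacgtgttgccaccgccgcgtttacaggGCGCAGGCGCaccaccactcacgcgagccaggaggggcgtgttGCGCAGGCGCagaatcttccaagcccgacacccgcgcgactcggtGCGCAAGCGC
Atp5c1, the second annotated start, chr2:10080433-10080682, NRF1 motif: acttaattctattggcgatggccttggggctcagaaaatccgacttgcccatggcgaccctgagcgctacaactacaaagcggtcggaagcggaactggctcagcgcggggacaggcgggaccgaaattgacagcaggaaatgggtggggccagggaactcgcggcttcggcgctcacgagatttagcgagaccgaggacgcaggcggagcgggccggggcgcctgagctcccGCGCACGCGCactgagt
Atp5j, the second annotated start, chr16:84834977-84835226, ETS motif: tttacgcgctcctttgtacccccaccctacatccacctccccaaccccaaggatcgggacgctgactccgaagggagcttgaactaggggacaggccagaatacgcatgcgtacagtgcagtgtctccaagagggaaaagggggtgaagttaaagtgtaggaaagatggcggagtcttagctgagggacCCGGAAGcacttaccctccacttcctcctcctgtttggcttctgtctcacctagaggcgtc
The Sdha window holds 3 matches to the NRF1 motif, at positions 153, 196 and 241 counted from the first base printed. The Atp5c1 window holds 1 NRF1 match, at position 234, and the Atp5j window 1 ETS match, at position 190. The first annotated starts of Atp5c1 and Atp5j held no match to either motif, and neither did the window of Uqcrfs1. Promoters were found for 34 of the 46 genes. The NRF1 motif was in 7 of these (20.6%, against 4.23% of 27025 genes with a promoter in the table). Besides Sdha and Atp5c1 they were Atp5g2, Atp5h, Atp5k, Cox6a1 and Sdhd, none of which passed the threshold used below. Of these, Atp5g2 (0.12) and Sdhd (0.22) had positive log2 changes, and Atp5h (−0.04), Atp5k (−0.02) and Cox6a1 (−0.12) negative ones. The ETS motif was in 8 of the 34 (23.5%, against 7.83%), of which only Atp5j passed that threshold. A gene was counted if any of its annotated starts had a match, and the 27025 genes include ones not measured here. These shares describe the letters and not the binding of a factor.

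In fibroblasts from HFD mice 6 of the 46 genes were higher than in ND fibroblasts and 0 were lower (limma, adjusted p under 0.05 over all genes), where 2.62% of all genes were called higher and 2.73% lower. They were Sdha of complex II, Uqcrb and Uqcrfs1 of complex III, and Atp5a1, Atp5c1 and Atp5j of complex V, with rises of 1.31-fold to 1.68-fold. No gene of complex IV passed, although its genes had the same sign almost throughout, with 16 of 17 positive. Over all 46 genes the median log2 change was 0.13, against 0.02 over all genes tested, and 38 were positive, where 56.2% of all genes were. In 19 of the 46 every HFD array lay above every ND array (9.95% of all genes), and in 1, Sdhc, every HFD array lay below (7.99% of all genes). At an unadjusted p under 0.05 there were 17 higher (12.3% of all genes) and 1 lower (9.83% of all genes). The genes share arrays and vary together, so these counts are not made of independent cases. In RNA of pooled sorted cells, fewer cells of a type and less RNA per cell cannot be told apart.

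The count of calls depended on single arrays, for these genes and for all genes alike. Without ND 1 there were 7 of the 46 called higher (2.61% of all genes) and without HFD 1 there were 5 (2.8% of all genes). Without ND 2 (1.39% of all genes) or HFD 2 (0.556% of all genes) only Sdha was called. The limma count was 0 without ND 3, HFD 3 or HFD 4, where 0.0234%, 0.0117% and 0.0234% of all genes were called higher, with 10, 16 and 15 of the 46 higher at an unadjusted p under 0.05. With ND 4 included it was also 0 (0.0292% of all genes), with 7 higher at an unadjusted p under 0.05. The median change over the 46 genes stayed between 0.11 and 0.17 in all of these.

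Of the 74 probe sets 61 were positive, and 7 were called higher and 0 lower when all 28898 named probe sets were tested, where 2.21% were higher. Of the 19 genes with several probe sets 14 had all of 1 sign, and the 5 with both signs were Atp5h, Atp5k, Cox6a1, Uqcr10 and Uqcrq. At an adjusted p under 0.10 the genes called higher numbered 10 (5.81% of all genes), with Atp5g1, Cox4i1, Cox6b1 and Uqcrq added.

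**Figure D1:**
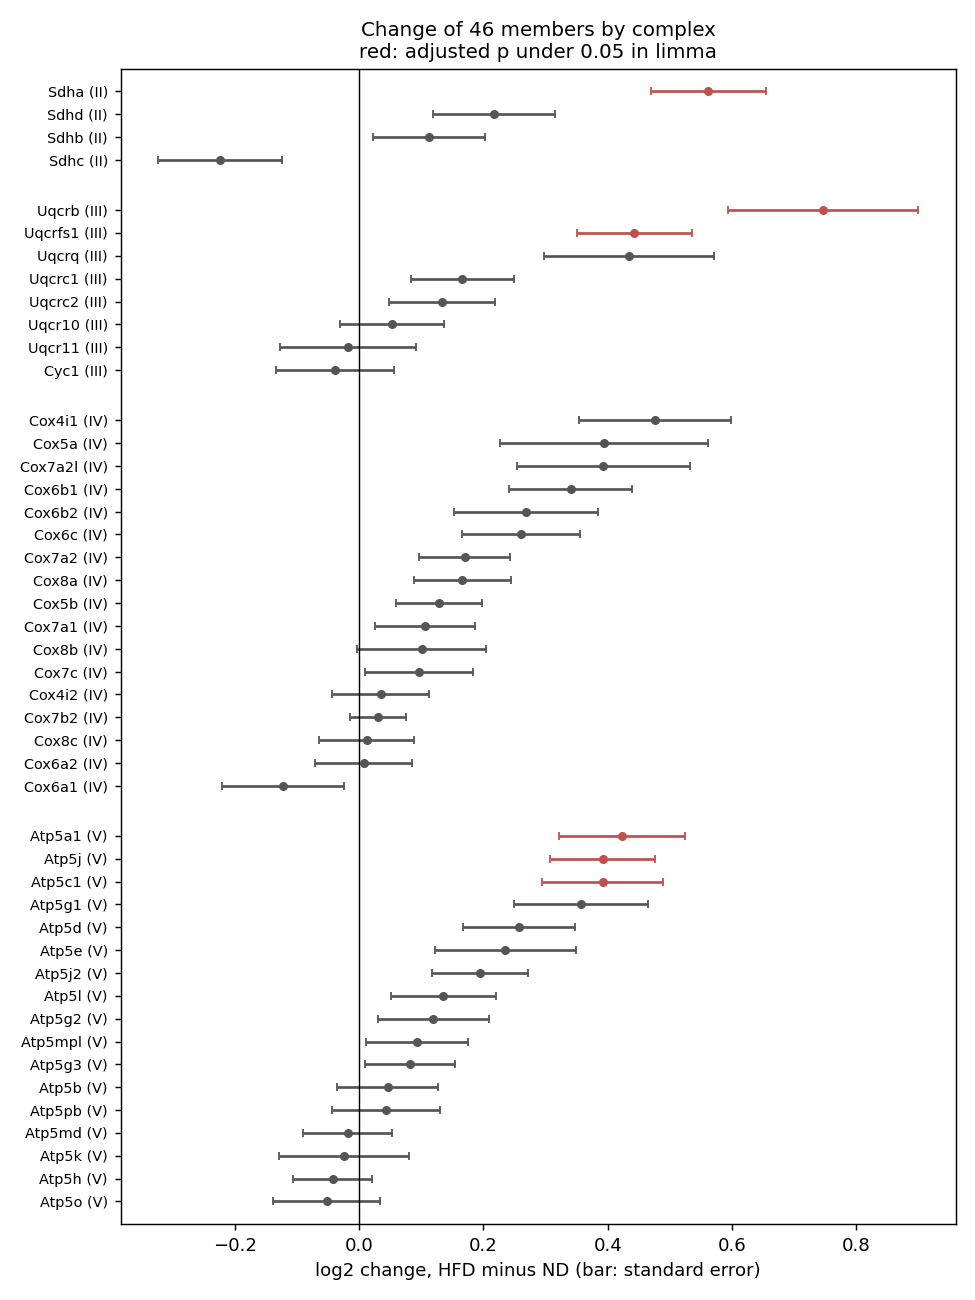
Log2 change (HFD minus ND, horizontal axis) of each of the 46 genes, grouped by complex on the vertical axis, with points for the limma estimate and bars for its standard error (3 ND and 4 HFD arrays). The 6 genes past the threshold, in red, lie between 0.39 and 0.75, and 38 of the 46 points lie above 0.

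Complex II has a catalytic head of Sdha, the flavoprotein that oxidises succinate, and Sdhb, the iron-sulphur subunit, held in the membrane by Sdhc and Sdhd. Sdha was at 9.92, 9.68 and 9.63 log2 units in ND 1, 2 and 3 and at 10.20, 10.39, 10.31 and 10.32 in HFD 1, 2, 3 and 4. Every HFD array was above every ND array, and Sdha rose by 0.56 (SE 0.09, limma adjusted p = 0.0224), with means of 9.74 ± 0.16 in ND (SD, n = 3) and 10.31 ± 0.08 in HFD (SD, n = 4). Its 3 other probe sets were positive too. The brighter of them, at a mean of 9.33, differed by 0.67 and passed when all named probe sets were tested (adjusted p = 0.0318), while those at 5.02 and 4.30, below the median gene of 6.77, differed by 0.15 and 0.09. With the mean of its probe sets in place of the brightest, Sdha differed by 0.37 and did not pass (adjusted p = 0.0522). ND 4, at 10.28, lay within the HFD range.

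The partners of Sdha did not pass. Sdhb was at 9.47, 9.28 and 9.45 in ND 1 to 3 and at 9.62, 9.50, 9.40 and 9.53 in HFD 1 to 4, so the diets overlapped (change 0.11, 95% interval −0.09 to 0.31). Sdhc, 1 of the anchors, was lower in all HFD arrays (7.85, 7.83, 7.62 and 7.54) than in ND 1 to 3 (7.94, 7.90 and 7.96), a difference of −0.22 (SE 0.10, adjusted p = 0.22). Sdhd, the other anchor, was at 5.82 to 5.91 in ND and 5.98 to 6.37 in HFD, below the median gene, and differed by 0.22 (adjusted p = 0.228). The 4 subunits had a median change of 0.165 and a range of −0.22 to 0.56.

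Complex III is built around 3 electron-carrying subunits, of which Uqcrfs1 (the Rieske iron-sulphur protein) and Cyc1 (cytochrome c1) are nuclear, with Uqcrc1 and Uqcrc2 as core proteins and Uqcrb, Uqcrq, Uqcr10 and Uqcr11 as small subunits. Uqcrb was at 7.70, 7.46 and 7.0 in ND 1 to 3 and at 7.99, 8.20, 8.05 and 8.29 in HFD 1 to 4. It showed the largest change of the 46 genes, 0.75 (SE 0.15, adjusted p = 0.0302), and also the widest spread among ND arrays, with means of 7.39 ± 0.36 in ND (SD, n = 3) and 8.13 ± 0.14 in HFD (SD, n = 4). ND 3 was the lowest array, and without it the change was 0.55 (adjusted p = 0.0959). ND 4, at 8.41, was above every HFD array, and with it the change was 0.49 (adjusted p = 0.33).

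Uqcrfs1 was at 7.72, 7.53 and 7.49 in ND 1 to 3 and at 7.91, 8.04, 8.04 and 8.10 in HFD 1 to 4. The diets did not overlap, and the gene rose from 7.58 ± 0.12 (SD, n = 3) to 8.02 ± 0.08 (SD, n = 4), by 0.44 (SE 0.09, adjusted p = 0.0318). ND 4 was between the diets at 7.83. Both Uqcrb and Uqcrfs1 were measured by 1 probe set only.

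The other 6 genes of complex III did not pass. Uqcrq was at 9.75, 9.57 and 9.22 in ND 1 to 3 and at 10.19, 9.78, 9.87 and 9.95 in HFD 1 to 4, a change of 0.43 (SE 0.14, adjusted p = 0.0906) without overlap. Its other probe sets, at means of 6.00, 5.87 and 4.77, differed by 0.06, −0.14 and −0.03. Among the core proteins, Uqcrc1 differed by 0.17 (9.24 to 9.36 in ND, 9.40 to 9.55 in HFD, adjusted p = 0.276) and Uqcrc2 by 0.13 (10.19 to 10.41 in ND, 10.36 to 10.56 in HFD, adjusted p = 0.406). A second, dimmer probe set of Uqcrc2 differed by 0.29 (adjusted p = 0.0953 over probe sets). Uqcr10 (0.05), Uqcr11 (−0.02) and Cyc1 (−0.04) had the smallest differences of the complex, and Cyc1 had a 95% interval of −0.25 to 0.17. A dim probe set of Uqcr10, with a mean of 5.37, differed by −0.22 (unadjusted p = 0.0208), against 0.05 for the brightest.

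**Figure D2:**
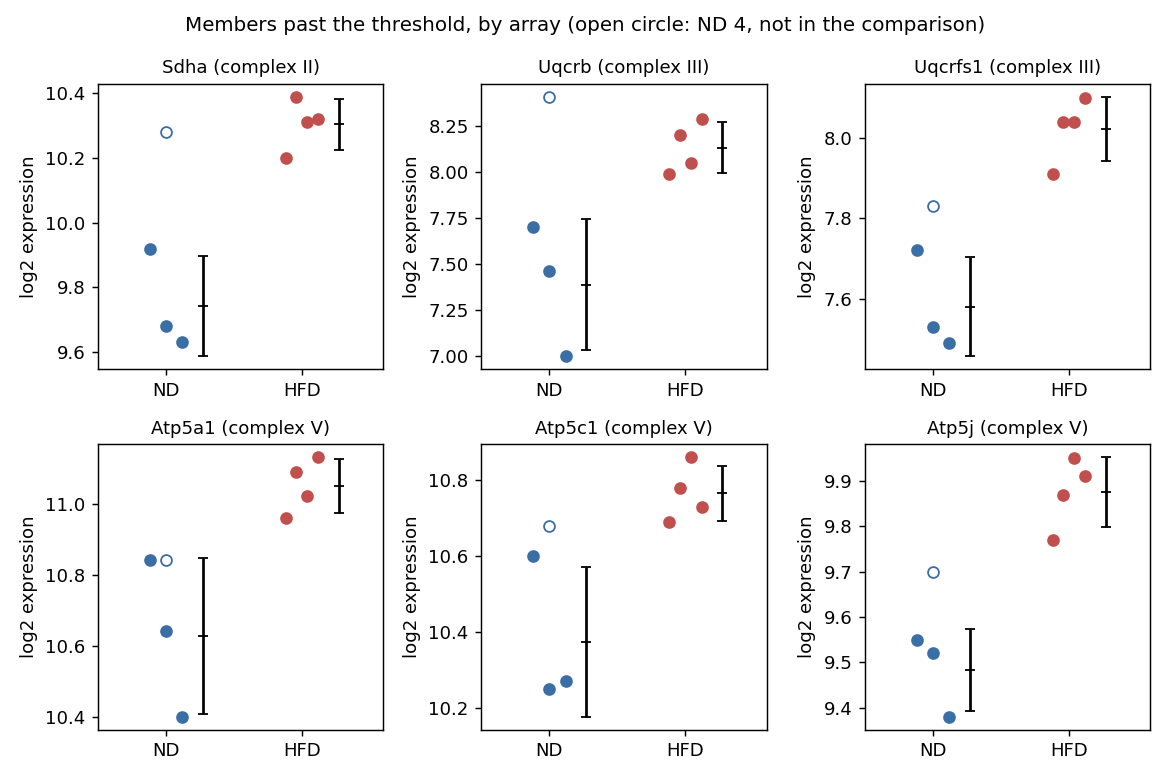
Log2 expression (vertical axis) of the 6 genes past the threshold, with 1 point per array in order of specimen number and black bars for mean ± SD (ND 1 to 3, HFD 1 to 4). In all 6 the HFD arrays lie above ND 1 to 3, and ND 4 (open circle) is above the other ND arrays in 5 of them and level with ND 1 in Atp5a1.

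Complex IV takes its catalytic core from mitochondrial DNA, and its nuclear subunits surround that core. Cox4i1, a regulatory subunit, was at 10.46, 10.35 and 9.89 in ND 1 to 3 and at 10.76, 10.72, 10.66 and 10.70 in HFD 1 to 4. The HFD arrays lay close together and above ND, with a change of 0.48 (SE 0.12) that missed the threshold (adjusted p = 0.0516). It passed under 4 alternatives, without ND 1 among them (0.59, adjusted p = 0.0361). ND 4, at 10.80, was the highest of all 8 arrays. Cox6b1, which links the monomers of the dimer, was at 9.57 to 9.78 in ND and 9.91 to 10.23 in HFD (0.34, adjusted p = 0.0722), and its second probe set differed by 0.22.

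Cox7a2l, known as a factor that joins complexes III and IV into supercomplexes, was at 10.69, 10.49 and 10.01 in ND 1 to 3 and at 10.67, 10.80, 10.90 and 10.79 in HFD 1 to 4, so that ND 1 lay within the HFD range (0.39, SE 0.14, adjusted p = 0.129). Its other 2 probe sets differed by 0.41 and 0.30. Cox6c (0.26), Cox7a2 (0.17), Cox8a (0.17) and Cox5b (0.13) were higher in every HFD array than in ND 1 to 3 but did not pass, and Cox5a (0.39, SE 0.17), led by HFD 1 at 9.50, overlapped. Cox7c differed by 0.10. Cox6a1 had the only negative value of the complex, −0.12, while its second probe set differed by 0.12 (unadjusted p = 0.114).

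Several subunits of complex IV have a second form made mainly in muscle, lung or testis. None of the 7 measured (Cox4i2, Cox6a2, Cox6b2, Cox7a1, Cox7b2, Cox8b and Cox8c) passed, with changes of 0.01 to 0.27. Cox6b2, a testis form, had the largest (6.05 to 6.39 in ND, 6.40 to 6.76 in HFD), and it was below the median gene, as were Cox7a1 and Cox7b2. The 10 widely made subunits had a median change of 0.215, against 0.035 for these forms.

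Complex V makes ATP in a head of alpha and beta subunits (Atp5a1 and Atp5b). A stalk of gamma, delta and epsilon subunits (Atp5c1, Atp5d and Atp5e) turns within that head. Atp5a1 was at 10.84, 10.64 and 10.40 in ND 1 to 3 and at 10.96, 11.09, 11.02 and 11.13 in HFD 1 to 4. It rose from 10.63 ± 0.22 (SD, n = 3) to 11.05 ± 0.08 (SD, n = 4), by 0.42 (SE 0.10, adjusted p = 0.043). Atp5c1 was at 10.60, 10.25 and 10.27 in ND 1 to 3 and at 10.69, 10.78, 10.86 and 10.73 in HFD 1 to 4. It rose from 10.37 ± 0.20 (SD, n = 3) to 10.77 ± 0.07 (SD, n = 4), by 0.39 (SE 0.10, adjusted p = 0.0468). Both genes had all HFD arrays above ND 1 to 3, with ND 1 nearest to them. A second, dim probe set of Atp5c1 (mean 6.71) differed by 0.10, and with the mean of both the change was 0.25 (adjusted p = 0.134).

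Atp5b, which carries the catalytic sites, did not pass. It was at 10.29, 10.38 and 10.34 in ND 1 to 3 and at 10.49, 10.44, 10.24 and 10.36 in HFD 1 to 4, with a change of 0.05 (95% interval −0.14 to 0.23). Of the other stalk subunits, Atp5d differed by 0.26 (10.37 to 10.72 in ND, 10.79 to 10.90 in HFD, adjusted p = 0.123) and Atp5e by 0.235 (adjusted p = 0.259). The diets did not overlap in Atp5d and overlapped in Atp5e.

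The head is held still by a peripheral stalk of Atp5pb, Atp5h, Atp5o and Atp5j (coupling factor 6). Atp5j was at 9.55, 9.52 and 9.38 in ND 1 to 3 and at 9.77, 9.87, 9.95 and 9.91 in HFD 1 to 4. It rose from 9.48 ± 0.09 (SD, n = 3) to 9.88 ± 0.08 (SD, n = 4), by 0.39 (SE 0.08, adjusted p = 0.0334), with ND 4 at 9.70 between the diets. The other 3 stalk genes differed by −0.05 to 0.04, and none passed. Atp5o, which joins the stalk to the head, was at 9.80, 9.69 and 9.75 in ND 1 to 3 and at 9.85, 9.62, 9.68 and 9.63 in HFD 1 to 4.

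The rotor ring of subunit c comes from 3 genes that encode the same mature protein, Atp5g1, Atp5g2 and Atp5g3. Atp5g1 was at 8.33, 8.35 and 8.04 in ND 1 to 3 and at 8.70, 8.44, 8.58 and 8.67 in HFD 1 to 4, a change of 0.36 (SE 0.11, adjusted p = 0.0798) without overlap. Atp5g2 (0.12) and Atp5g3 (0.08) overlapped between diets, and a dim second probe set of Atp5g1 (mean 5.24) differed by 0.03. Of the membrane subunits, Atp5j2 differed by 0.19 (10.25 to 10.39 in ND, 10.45 to 10.61 in HFD, adjusted p = 0.174), while Atp5l (0.14), Atp5mpl (0.09), Atp5md (−0.02) and Atp5k (−0.02) overlapped.

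The unequal changes within a complex were set against each other in 4 pairs chosen after their values were seen. The change of Sdha exceeded that of Sdhb by 0.45, and that of Uqcrfs1 exceeded that of Cyc1 by 0.48. For Atp5a1 over Atp5b the excess was 0.38, and for Cox4i1 over Cox6a1 it was 0.60. The latter depends on the probe set of Cox6a1. The brightest (mean 11.23) differed by −0.12, and the second, nearly as bright (mean 11.15), by 0.12. The pairs were picked from these same arrays for their unequal changes, so a test on them cannot show that the subunits differ. These values are a description.

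**Figure D3:**
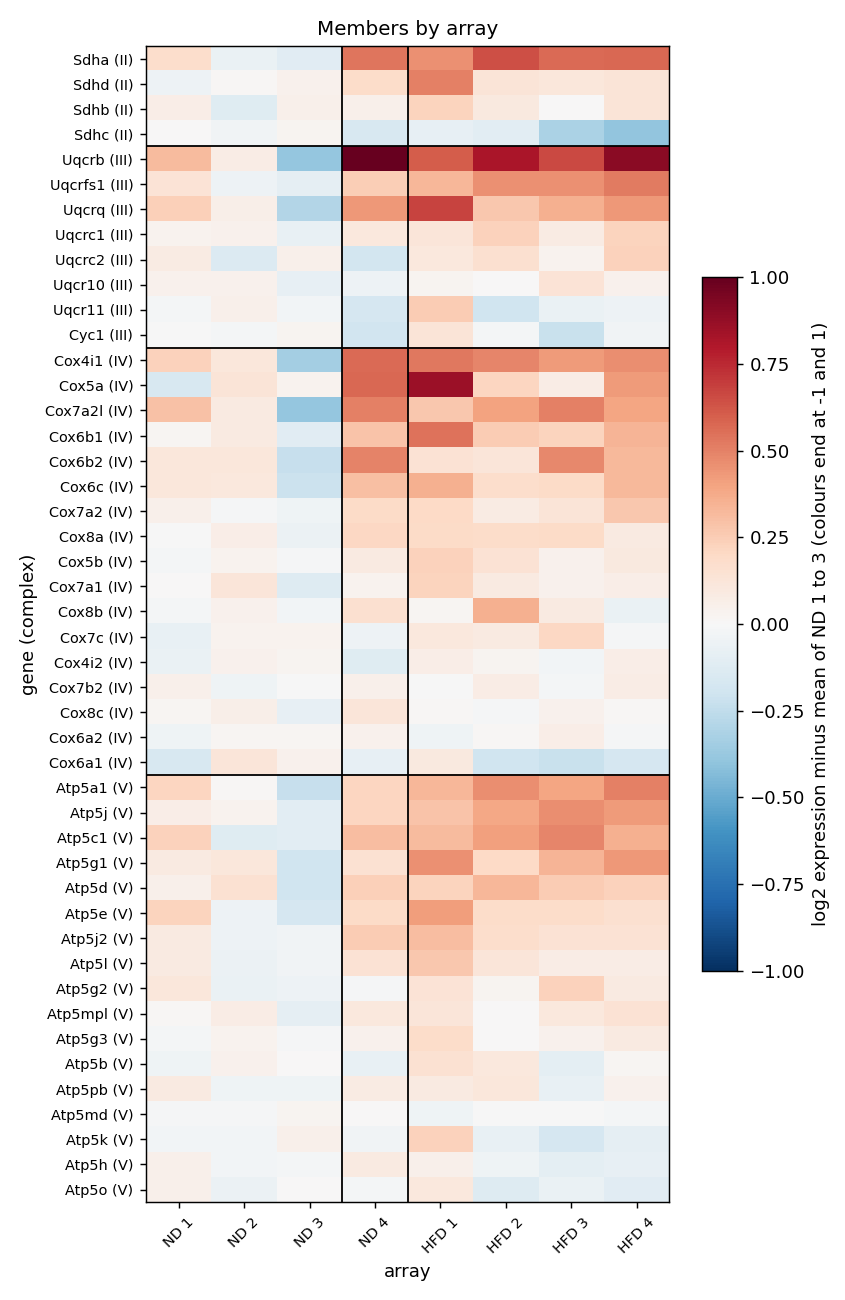
Log2 expression of the 46 genes (rows, grouped by complex) in the 8 arrays (columns) as the difference from the mean of ND 1 to 3, red for higher and blue for lower. ND 3 is pale or blue in most rows, and ND 4, left out of the comparison, is red in many of the rows that are red in HFD.

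By array, the mean of the 46 genes relative to ND 1 to 3 was 0.06, 0.02 and −0.08 in ND 1, 2 and 3 and 0.235, 0.16, 0.14 and 0.17 in HFD 1, 2, 3 and 4. HFD 1 was highest and ND 3 lowest, and the diets did not overlap. ND 4 was at 0.15, within the HFD range. ND 3 was the lowest of the 7 arrays in 21 of the 46 genes (26.1% of all genes), HFD 1 the highest in 21 (11.7% of all genes), and ND 4 above ND 1, 2 and 3 in 27 (32.4% of all genes) and below all of them in 7 (23.2% of all genes). The 17 genes of complex IV had the highest mean of ND 4, at 0.20.

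A sign of RNA quality, the 3′ minus 5′ difference of control probe sets (mean of Gapdh and Actb), was lower in HFD, where these genes ran higher. It was negative in every array, so the 3′ sets lay below the 5′ ones. It was −0.29, −0.335 and −0.18 log2 units in ND 1, 2 and 3, −0.37 in ND 4, and −0.40, −0.44, −0.375 and −0.44 in HFD 1, 2, 3 and 4, so ND 3 stood farthest from HFD on both measures and ND 4 lay nearer to HFD. The diets did not overlap in it (p = 0.0286 in an exact permutation test, two-sided, with 35 splits and no smaller value possible). With this measure as a covariate in limma the median change of the 46 genes was 0.07 and 0 were called (0.0% of all genes), with 1 higher at an unadjusted p under 0.05. Sdha then differed by 0.44 (SE 0.166) and Atp5c1 by 0.37 (SE 0.183). Uqcrb differed by 0.22 (SE 0.205), Atp5a1 by 0.14 (SE 0.155) and Cox4i1 by 0.07 (SE 0.166). Since the diets do not overlap in this measure, the fit cannot tell its part from that of the diet. The part of RNA quality in the result was not tested.

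Keratinocyte markers also ran higher in HFD, with 18 of 19 measured positive, a median change of 0.35 and 0 past the threshold. Their mean was 6.23 to 6.74 in ND 1 to 3, 7.07 in ND 4 and 6.40 to 7.695 in HFD. HFD 1, the highest array for the respiratory genes, had the lowest keratinocyte mean of its diet (6.40), and HFD 2 the highest. With this mean as a covariate the median change of the 46 genes was 0.17 and 0 were called in limma (0.0819% of all genes), with 13 higher at an unadjusted p under 0.05. The part of these cells in the result was not tested beyond this fit.

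Most markers of other cell types of skin were below the median gene, but not all. Of 12 skeletal muscle markers 10 were below the median gene, with array means of 5.86 to 5.90 in ND and 5.82 to 5.92 in HFD. The 7 adipocyte markers (5 below the median gene) had means of 5.86 to 5.88 and 5.80 to 5.91, and the 8 endothelial markers (5 below) 5.71 to 5.88 and 5.77 to 5.96. None of these passed. Tek, an endothelial receptor, varied most within a diet, from 6.80 to 8.77 in HFD, with HFD 2 the highest. Of 9 blood markers 5 were below the median gene, and Cd68 (8.98 in ND), Cd74 (8.22) and Csf1r (7.63) were among the others. Of the 9, 1 was called higher (11.1%, against 2.62% of all genes). It was Tyrobp, which rose by 0.32 at a low level (5.60 in ND, 5.92 in HFD, limma, adjusted p = 0.0352). The blood list had means of 6.18 to 6.29 in ND and 6.17 to 6.32 in HFD. The 6 melanocyte and nerve markers (4 below the median gene), none of which passed, had means of 6.345 to 6.37 in ND and 6.22 to 6.30 in HFD. Mitf alone among them was abundant, at 9.30 ± 0.18 in ND (SD, n = 3) and 8.68 ± 0.35 in HFD (SD, n = 4), a difference of −0.62 (adjusted p = 0.0638), and the other 5 differed by −0.07 to 0.07. The part of these cells in the results on the respiratory genes was not tested. The 10 fibroblast markers had means of 11.39 to 11.44 in ND and 11.32 to 11.41 in HFD. Of these, 2 were called lower (2.73% of all genes), Lum by −0.335 and Fbln1 by −0.26 (limma, adjusted p = 0.0358 and 0.033). In 4 of the 10 every HFD array lay below ND 1 to 3 (7.99% of all genes), and in 1, Pdgfra, above (9.95% of all genes).

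**Figure D4:**
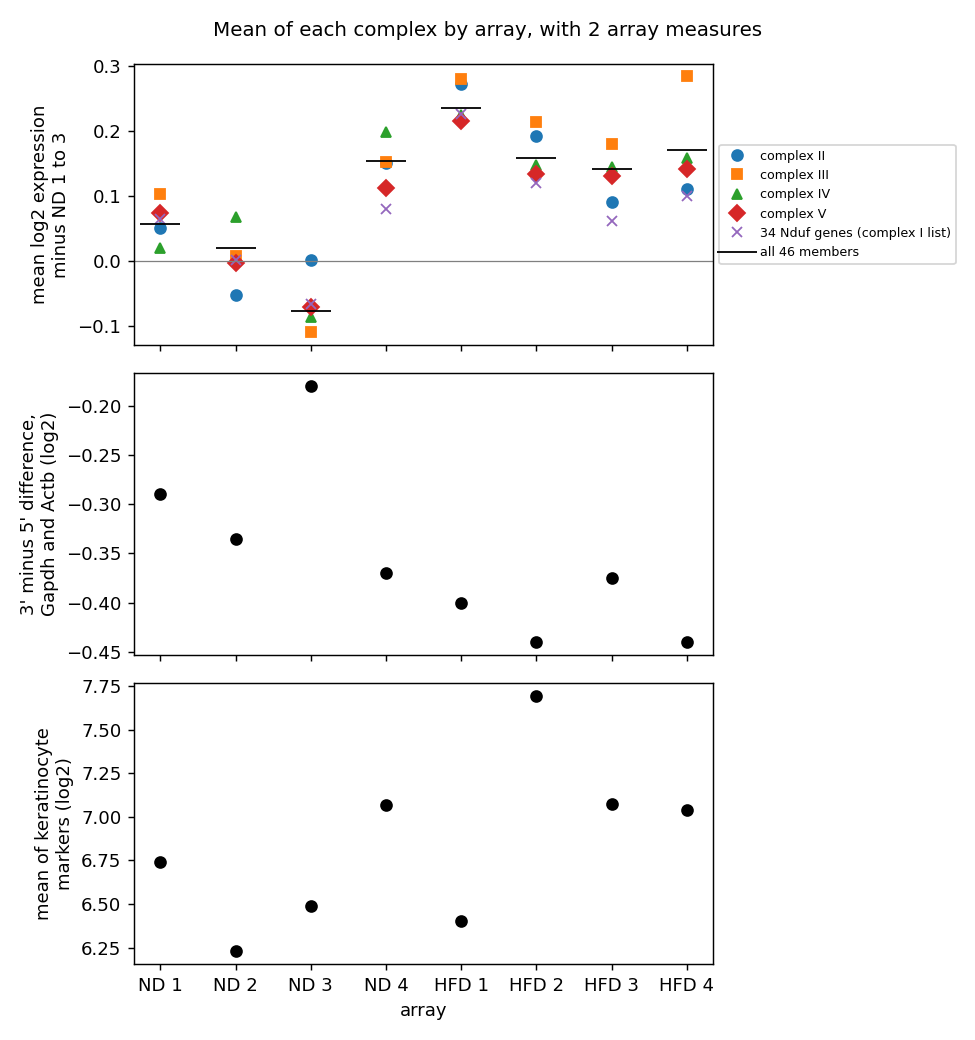
Mean log2 expression of each complex, with the 34 Nduf genes for complex I, relative to ND 1 to 3 (top), the 3′ minus 5′ value of control probe sets (middle, Gapdh and Actb averaged) and the mean of 19 keratinocyte markers (bottom), by array. The black bars of all 46 genes lie between −0.08 and 0.06 in ND 1 to 3 and between 0.14 and 0.235 in HFD, with ND 4 at 0.15.

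Of the genes that assemble these complexes 1 was called higher, where 2.62% of all genes were. Of 21 measured assembly factors and further subunits of complex IV, Pet100, which helps to build the complex, rose by 0.57 (SE 0.11, adjusted p = 0.0264), with means of 7.36 ± 0.06 in ND (SD, n = 3) and 7.92 ± 0.18 in HFD (SD, n = 4), and 20 did not pass. None of 4 assembly factors of complex II or 5 of complex III passed. Nor did any of 6 assembly factors and further subunits of complex V, a list that includes Atp5md, already counted as a member above. Closest was Sdhaf4, which aids the maturation of Sdha, with a change of 0.30 (adjusted p = 0.0777). Atpif1, the inhibitor of the ATP synthase, differed by −0.19 (adjusted p = 0.222).

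None of the electron carriers around these complexes passed in limma. Of 11 genes of cytochrome c, coenzyme Q and the electron transfer flavoprotein, 7 were positive (56.2% of all genes) and 5 were higher at an unadjusted p under 0.05 (12.3% of all genes). Coq2, an enzyme of coenzyme Q synthesis, differed by 0.52 (adjusted p = 0.0747), Etfa by 0.37 (adjusted p = 0.0687) and Cycs, cytochrome c itself, by 0.26 (adjusted p = 0.193).

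Regulators of mitochondrial gene expression did not pass either, 0 of 15 measured, with a median change of 0.02. Nrf1 differed by 0.34 (7.61 to 7.76 in ND, 7.91 to 8.13 in HFD, adjusted p = 0.0558). Its motif stands in the Sdha and Atp5c1 windows printed above, and also before genes that did not pass. Gabpa (−0.09), Tfam (−0.07), Esrra (0.06) and Ppargc1b (0.01) differed little, and Tfb2m, which helps to start mitochondrial transcription, differed by −0.32 (adjusted p = 0.146).

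Complex I, the other entry to the chain, was followed by 34 genes with Nduf symbols, which include the pseudogene Ndufs5-ps and the paralogue Ndufa4l2, neither of them called. Of these, 4 were called higher (11.8%, against 2.62% of all genes), 1 lower (Ndufa3, −0.41), and the median change was 0.15, beside 0.13 for complexes II to V. Of 73 mitochondrial ribosomal proteins 2 were higher (2.74%, near the 2.62% of all genes) and 1 lower, with a median change of 0.09. These are descriptions, and the differences between the sets were not tested.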

How the data were processed

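Expression was measured on arrays of 8 samples. The deposited values are log2 expression of 45141 probe sets, made by the authors with RMA and the affy package per the submitters' processing notes. Tool versions were not given in these labels. The values run from 3.56 to 13.5, and the quartiles of the arrays agree within 0.04, so they were used without further scaling and a change in total RNA would not show. No pair of arrays was a duplicate (SD of the difference at least 0.165). The number of arrays limits the precision, and p-values measure the spread between these samples, which the labels call specimens and which may be technical in part.

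Genes were assigned to probe sets through the platform's annotation (28898 with 1 gene, 551 with several, which were not used), with symbols updated by Entrez identifier through a GRCm38.p6 table. No gene was placed on the genome, since the labels name no build, and promoter positions are those of the RefSeq table.

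HFD 1 to 4 were compared with ND 1 to 3 over 17097 genes in limma 3.58.1 (R 4.3.3), with lmFit, eBayes (trend set, 10.3 total degrees of freedom) and Benjamini-Hochberg adjustment over all genes at 0.05. In simulated data of 17097 genes with 200 changed, this comparison recovered 93.7% of changes of 1 log2 and 62.5% of 0.5 log2, with 5.07% false calls. The simulation drew normal noise independently for each gene and shuffled the SDs among genes. In the real arrays genes vary together, so these rates may not hold there. The members and lists were chosen with earlier results of these data known, so sets are described by counts and medians beside those of all genes. Named with all values were the members past the threshold, and with values the 3 of smallest p among the others of each complex. Further members were named after their values were seen. Alternatives are given in the closing section, and figures were drawn with matplotlib 3.10.9.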

Additional observations from a re-analysis of the deposited data

Results flagged for a closer look

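In 4 of the 46 genes 1 HFD array stood far from the other 3, as in 5.62% of all genes. The rule used flags about 1 in 20 groups by chance. HFD 1 was at 9.22 in Atp5e (8.96 to 8.98 in the others), at 11.4 in Cox6a1 (11.08 to 11.13) and at 6.37 in Sdhd (5.98 to 6.00), each time the highest. HFD 4 was the lowest in Cox8a, at 9.56 against 9.65 to 9.66. None of these genes passed the threshold.

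ND 4, which the comparison left out, was above ND 1, 2 and 3 in 27 of the 46 genes and below all of them in 7, where 32.4% and 23.2% of all genes were. The labels give no reason for its exclusion.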

How the results depend on the processing

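The count of 6 genes higher in HFD became 0 with all 8 arrays (7 at an unadjusted p under 0.05), 0 with the specimen number as a replicate block (12), 0 with the 3′ minus 5′ covariate (1), 0 with the keratinocyte covariate (13), 3 with the mean of probe sets and 10 at an adjusted p under 0.10. Over all genes, 0.0292%, 0.00585%, 0.0%, 0.0819%, 1.19% and 5.81% were then called higher, against 2.62%, so calls were lost or gained in general. Leaving out 1 array gave 0 to 7. Of the settings chosen after seeing the data, a covariate of nonspecific GC-rich background gave 1 (0.994% of all genes) and leaving out ND 3 and HFD 2 gave 0 (0.0% of all genes, 10 members at an unadjusted p under 0.05). It was 4 to 7 without genes below the lower quartile, after quantile normalization or median centring, with every probe set alone, with array weights, and with eBayes robust or without trend. Of all genes or probe sets tested, 2.18% (median centring) to 4.42% (without genes below the lower quartile) were then called higher. The count of genes lower in HFD was 0 in every setting run, with 0 to 2 at an unadjusted p under 0.05. The specimen numbers did not pair the arrays (correlations of −0.18, −0.29 and −0.05 between arrays of the same number), and HFD 4 has no partner in that block. With the 3′ minus 5′ covariate the median change was 0.07 over all 46 genes, 0.081 in complex III and 0.039 in complex IV, and Cox7a2l (−0.016) and Atp5d (−0.026) changed sign. The 6 genes called kept a positive change in all 22 alternatives, past the threshold in 8 (Atp5c1) to 13 (Sdha) of them, with adjusted p of up to 0.999. Several alternatives test the same values with another variance estimate, set of genes or threshold, so their sign was fixed in advance. The setting of an adjusted p under 0.10 is the main fit itself, yet it is counted among the passes. The replicate block repeats the changes found without HFD 4. The 22 are thus not separate checks. The causes were not tested. Probe sets below the median gene limit Sdhd, Cox6b2, Cox7a1 and Cox7b2.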

Other observations

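The 5 genes outside the respiratory complexes whose levels over the 7 arrays were most like the mean of the 46 standardised members were Psma5, a proteasome subunit (Pearson r = 0.996), Scp2, a lipid carrier protein (0.996), Necap2 (0.993), Tbc1d14 (0.992) and the tyrosine kinase Fer (0.992). They were taken from 17097 genes for this likeness, over 7 arrays that also differ in diet, so the values are a description. Their changes were 0.34, 0.27, 0.21, 0.23 and 0.34, and none passed the threshold (limma, adjusted p of 0.0597 to 0.205).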
